A study of Mus musculus with 12 samples.

Results

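Mist1, encoded by Bhlha15, occupied 23806 common regions in plasmablasts (PBs), and 8398 of them (35.3%) lay inside protein-coding genes away from any transcription start site (TSS). These gene-body regions are described here. A common region was the union of peaks from the 2 Mist1 Bio-ChIP-seq experiments that shared at least 1 bp, out of 29413 peaks in experiment 1 and 30247 in experiment 2. A region was kept if it was narrower than 3000 bp, overlapped a protein-coding gene of GENCODE M1 (mouse genome build mm9) and did not touch the 1000 bp on either side of the TSS of any transcript of a protein-coding gene. Of the other common regions, 7888 lay at such a TSS, 6800 were distal, and 720 reached 3000 bp or more, including 145 in gene bodies. The widest gene-body regions that were kept measured 2949 to 2986 bp, and the narrowest that were left out measured 3002 to 3018 bp.

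Mist1 is a basic helix-loop-helix transcription factor that binds E-boxes, short DNA elements that begin with CA and end with TG and hold any bases in between (CANNTG). It is expressed in secretory cells such as pancreatic acinar cells and plasma cells (PCs), where it acts downstream of Xbp1, a regulator of the unfolded protein response. Introns often contain enhancers of the gene that carries them or of neighbouring genes, so an intronic binding region need not act on its host.

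All mice were C57BL/6. The chromatin came from CD138+ PBs of Bhlha15(fl/fl) R26(BirA/BirA) mice after 4 days of LPS stimulation of splenic B cells. The floxed Bhlha15 allele carries a biotin acceptor sequence at the N-terminus of Mist1, which the BirA ligase biotinylates for streptavidin pulldown. RNA-seq was available for splenic TACI+CD138+ PCs sorted at day 7 after NP-KLH immunization from wildtype mice (given as Bhlha15(fl/fl) in the methods) and from Cd23-Cre Bhlha15(fl/fl) mice, whose Cre is active from the immature B cell stage onward. RNA-seq was also available for sorted PBs grown for 8 days on 40LB feeder cells (the iGB system) from control Xbp1(fl/fl) mice, from Mist1-deficient Bhlha15(CreER/CreER) mice with CreER inserted at the Mist1 locus, and from Cd23-Cre Xbp1(fl/fl) mice. Each of the 5 RNA groups had 2 libraries from independent experiments, and levels are given as TPM, the number of transcripts of a gene among 1000000 transcripts of the library. No library contained both the binding and the RNA measurement, and the LPS-stimulated PBs used for binding have no RNA library here. The PCs and the iGB PBs express the genes that define their cell type. The summed TPM of 9 plasma cell markers was 91694 to 98975 in the PC libraries. It was 38689 to 42143 in the control and Bhlha15(CreER/CreER) PB libraries, and 21306 and 21929 in the Xbp1-deficient PB libraries. Xbp1 is itself among the 9 markers, as are the genes of CD138 and TACI, for which the PCs were sorted.

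Bhlha15 was itself a host of a gene-body region, and its level followed the labels of the libraries. It is the gene altered in the Cd23-Cre Bhlha15(fl/fl) and Bhlha15(CreER/CreER) mice, so its decrease there was fixed by the genotype. The same holds wherever Bhlha15 is counted among changed host genes below. In PCs, its level was 258 and 242 TPM in the control and 14.4 and 16.6 TPM in the Mist1-deficient libraries, a decrease of 15.9-fold (log2 fold change -3.99 ± 0.10 SE, limma, adjusted p = 0.00028). In PBs, it was 176 and 159 TPM in the control, 3.6 and 2.6 TPM in the Xbp1-deficient and 0.21 and 0.55 TPM in the Bhlha15(CreER/CreER) libraries. The libraries without Mist1 thus lay far below their controls, and so did the Xbp1-deficient libraries.

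The sequences below are the central 200 bp of 8 gene-body regions, shown because their host genes encode Mist1 itself, the regulators of plasma cell fate Irf4 and Blimp1 (Prdm1), or are among the host genes that decreased most in Mist1-deficient PCs. Only windows with an E-box and outside untranslated regions were eligible, so the presence of an E-box in each was fixed by the choice. For each gene, 1 region is shown, although Irf4 has 4, Prdm1 5, Mamdc2 4 and Cib2 3. It is the region over a coding exon for Irf4 and Prdm1, and the eligible region nearest the 5′ end for the others. They are the plus strand of mm9 in the 5′ to 3′ direction, and capitals mark every E-box on that strand. CANNTG has 10 kinds, since an element on the minus strand appears as its reverse complement and was counted under 1 name. CACCTG, for instance, also appears as CAGGTG, whereas CAGCTG reads the same on both strands.
Bhlha15 coding exon, chr5:144952299-144952498: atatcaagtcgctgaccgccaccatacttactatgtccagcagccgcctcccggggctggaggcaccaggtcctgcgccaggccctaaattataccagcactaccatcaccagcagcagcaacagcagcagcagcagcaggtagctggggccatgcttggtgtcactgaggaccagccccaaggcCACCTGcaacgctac
Irf4 coding exon, chr13:30849396-30849595: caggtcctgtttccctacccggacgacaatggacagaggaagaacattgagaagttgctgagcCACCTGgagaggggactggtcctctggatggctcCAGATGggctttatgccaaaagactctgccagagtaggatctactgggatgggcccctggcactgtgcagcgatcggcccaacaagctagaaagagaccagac
Prdm1 coding exon, chr10:44160462-44160661: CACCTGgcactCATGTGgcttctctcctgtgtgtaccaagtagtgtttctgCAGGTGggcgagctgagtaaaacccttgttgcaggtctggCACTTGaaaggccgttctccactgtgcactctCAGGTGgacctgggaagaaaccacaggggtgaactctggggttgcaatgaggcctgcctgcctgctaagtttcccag
Arpp21 intron 1, chr9:112110468-112110667: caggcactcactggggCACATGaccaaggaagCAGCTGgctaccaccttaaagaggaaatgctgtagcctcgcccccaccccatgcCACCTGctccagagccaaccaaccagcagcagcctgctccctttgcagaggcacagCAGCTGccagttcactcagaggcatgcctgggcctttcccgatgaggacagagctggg
Serpini1 intron 1, chr3:75377998-75378197: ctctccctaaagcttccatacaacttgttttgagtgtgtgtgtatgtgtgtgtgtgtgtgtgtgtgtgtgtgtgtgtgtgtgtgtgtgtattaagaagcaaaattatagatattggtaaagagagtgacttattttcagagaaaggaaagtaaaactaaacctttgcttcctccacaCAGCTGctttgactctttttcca
Mamdc2 intron 10, chr19:23407380-23407579: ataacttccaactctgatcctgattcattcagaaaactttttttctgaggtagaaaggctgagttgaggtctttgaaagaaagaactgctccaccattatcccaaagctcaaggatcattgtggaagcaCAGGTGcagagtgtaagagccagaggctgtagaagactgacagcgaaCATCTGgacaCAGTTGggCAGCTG
Cib2 intron 1, chr9:54403021-54403220: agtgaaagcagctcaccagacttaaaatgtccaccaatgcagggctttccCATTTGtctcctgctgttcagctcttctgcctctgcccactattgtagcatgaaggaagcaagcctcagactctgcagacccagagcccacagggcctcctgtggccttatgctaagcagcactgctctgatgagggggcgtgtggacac
Creg2 intron 2, chr1:39693904-39694103: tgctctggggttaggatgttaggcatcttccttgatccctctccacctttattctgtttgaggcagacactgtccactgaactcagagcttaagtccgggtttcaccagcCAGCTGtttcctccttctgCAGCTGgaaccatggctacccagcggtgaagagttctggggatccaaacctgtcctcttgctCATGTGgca

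CAGCTG, the E-box kind most over-represented in gene-body regions, was present in 4 of these 8 windows. The Creg2 window held 2 copies, centred 13 and 32 bp from the middle of the region, and the Arpp21 window also held 2. The single CAGCTG of Serpini1 lay 80 bp from the middle. The Bhlha15, Irf4 and Prdm1 windows shown held none and carried CACCTG, with 3 copies in Prdm1. Of the regions not shown, 1 of Irf4 and 1 of Cib2 held CAGCTG, and 1 each of Irf4 and Prdm1 held CACCTG. The Cib2 window contained a single E-box of the kind CAAATG, which was not over-represented.

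The gene-body regions were compact. Their width had a median of 908 bp, ranged from 267 to 2986 bp, and was similar to that of distal regions (886 bp) but smaller than that of TSS regions (1303 bp). In 8101 of the 8398 regions (96.5%), 1 peak of each experiment formed the region. The middles of the peaks from both experiments differed by a median of 64.5 bp, and 5703 regions (67.9%) had middles no more than 100 bp apart. The peak was wider in experiment 2 in 4948 regions (58.9%). Of the gene-body peaks of experiment 1, 81.6% were shared with experiment 2, and 79.0% of those of experiment 2 were shared with experiment 1. The unshared peaks were narrower, with a median of 456 and 484 bp against 754 and 807 bp for shared peaks. The peak lists hold positions without height or enrichment, so the strength of binding was not measured beyond the presence of a peak.

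Most gene-body regions were intronic, as most gene-body sequence is. The middle of the region lay in an intron in 7690 cases (91.6%), in a coding exon in 273 (3.25%), in an untranslated region in 269 (3.20%), in another exon in 63, and beyond the annotated end of the gene in 103. Introns made up 93.8% of the gene-body bases outside the TSS zone, and the density of regions was 8.78 per Mb in introns and 10.3 per Mb in coding exons. No base touched an exon in 6784 regions (80.8%). The first intron was more densely occupied than later introns. Of 7369 regions in an intron of the reference transcript, 2504 were in intron 1, which gave 11.9 regions per Mb, against 9.995 in intron 2, 8.06 in intron 3 and 7.01 in intron 4 or later.

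The regions became sparser with distance from the 5′ end of the gene. The density was 15.6 per Mb (95% exact Poisson interval 14.4 to 16.9) at 2.5 to 5 kb, was 12.3 (11.6 to 12.9) at 10 to 20 kb, 6.44 (6.03 to 6.87) at 100 to 200 kb, and 3.31 (3.07 to 3.57) beyond 200 kb. The nearest bin, from 1 to 2.5 kb, had 11.8 (10.4 to 13.4) and was itself limited by the exclusion of regions that reach the TSS zone. The median region was 31.7 kb from the 5′ end of its gene and 12.5 kb from the nearest TSS of a protein-coding gene. Regions also occurred close to one another, as 3559 (42.4%) had another gene-body region within 10 kb. Only 203 (2.42%) lay within 1000 bp of the TSS of a gene that is not protein-coding. These intervals, like those of the shares below, cover counting error only, and neighbouring regions are not independent.

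**Figure D1:**
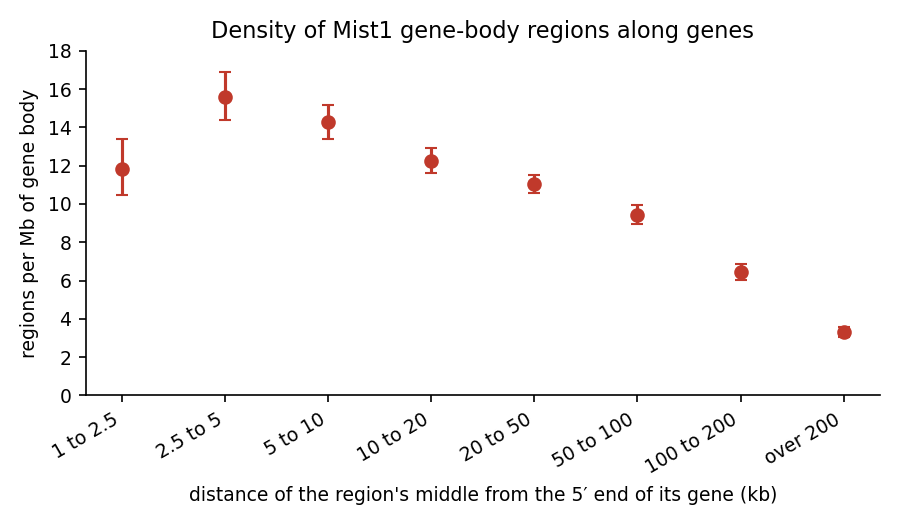
Mist1 gene-body regions per Mb of gene body (y axis) against the distance of the region's middle from the 5′ end of its gene (x axis, kb), with 95% exact Poisson intervals. Density peaked at 15.6 per Mb between 2.5 and 5 kb and was 3.31 per Mb beyond 200 kb.

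The X chromosome carried few gene-body regions. It held 90, which corresponded to 2.13 per Mb of gene body, whereas the autosomes had 9.41 per Mb, with a range from 7.88 on chromosome 6 to 14.3 on chromosome 11. The difference was also seen among genes with at least 10 TPM in control PBs, where 15.4% of 246 X-linked genes and 32.0% of 7835 autosomal genes had a gene-body region. It was not limited to gene bodies, as the same X-linked genes had a TSS region in 36.6% and the autosomal genes in 74.3% of cases. In each experiment alone, peaks were sparser on X, with 2.62 and 2.60 per Mb of chromosome against 11.7 and 12.05 on the autosomes. The regions that did occur on X resembled the others in sequence, with CAGCTG in 37.8% (27.8 to 48.6) of them and in 32.9% (31.9 to 34.0) of autosomal regions. The number of X chromosomes in the donor cells is not given in the sources used here, and its part in this difference was not tested.

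E-boxes were more common in gene-body regions than in gene-body sequence at large. At least 1 E-box was present in the central 200 bp of 7217 regions (85.9%), compared with 66.3% of all 4630141 windows of 200 bp that tile the gene bodies, 84.3% of distal regions and 61.3% of TSS regions. The excess came from a few of the 10 kinds. CAGCTG was present in 2770 regions (33.0%, 95% exact interval 32.0 to 34.0), against 8.07% of windows, a ratio of 4.09. CATATG was found in 16.8% (16.1 to 17.7) of regions and 5.98% of windows (ratio 2.82). CAGATG (28.0% and 15.1%), CACCTG (21.5% and 12.6%) and CACGTG (3.596% and 2.24%) followed with ratios of 1.86, 1.70 and 1.61. CAAATG and CAATTG were less common in regions than in windows, with ratios of 0.918 and 0.675. The median GC content of the regions was 46.5%, against 42.5% for the windows and 45% for sequence 1 kb from the region's middle, and its part in these ratios was not tested.

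Gene-body and distal regions had nearly the same E-box content, whereas TSS regions differed from both. CAGCTG was present in 31.2% (30.1 to 32.3) of distal and 20.8% (19.9 to 21.7) of TSS regions. CATATG was present in 14.4% (13.6 to 15.3) of distal and in 3.77% (3.36 to 4.21) of TSS regions, a ratio of gene bodies to TSSs that no other kind reached. TSS regions had a median GC content of 60.5%. CACGTG, in contrast, was more common at TSSs (5.17%) than in gene bodies (3.596%).

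The matches were concentrated in the middle of the region. CAGCTG occurred 2.30 times per kb within 50 bp of the middle and 0.510 times per kb at 1500 to 2000 bp away, a ratio of 4.51. The same values were 1.01 and 0.273 per kb for CATATG (ratio 3.68) and 1.31 and 0.813 per kb for CACCTG (1.61). The ratio of regions to windows varied with the bases on either side of CAGCTG. ACAGCTGT had a ratio of 9.18, and ACAGCTGG and ACAGCTGC of 6.60 and 6.59. Where CAGCTG was followed by A, the ratio was lower, with 2.09 for ACAGCTGA, 1.84 for GCAGCTGA, 1.78 for CCAGCTGA and 1.31 for TCAGCTGA. Each of these 8-letter elements was searched on both strands, and they are subsets of the CAGCTG matches.

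**Figure D2:**
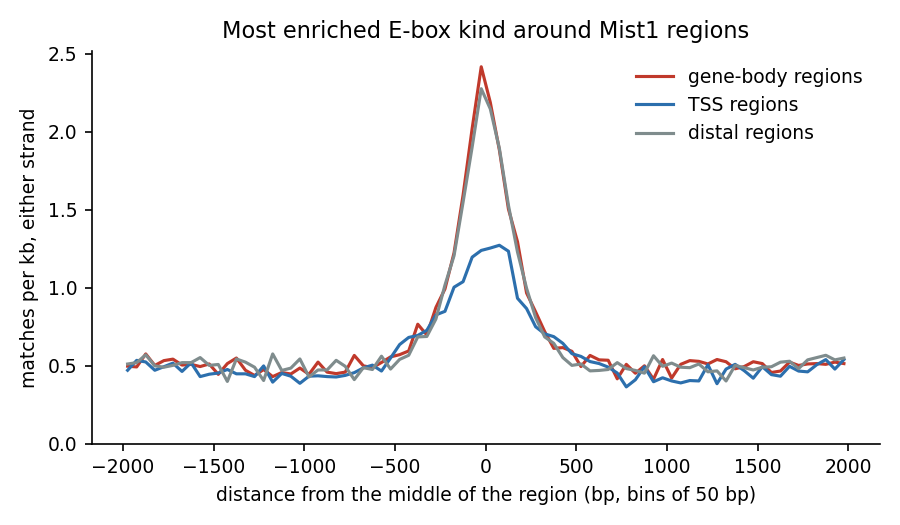
Matches per kb of CAGCTG, the most enriched E-box kind, on either strand (y axis) by distance from the middle of the region in bins of 50 bp (x axis), for gene-body, TSS and distal regions. Gene-body regions rise from 0.510 per kb in the flanks to 2.30 per kb within 50 bp of the middle, the distal curve runs along theirs, and the TSS curve is lower near the middle but not in every bin away from it.

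Several other elements were moderately over-represented in the central 200 bp. The octamer ATGCAAAT, bound by Oct proteins, was present in 3.22% of gene-body regions (ratio to windows 2.19), the Irf or Blimp1 element AAGTGAAA in 2.81% (1.90), the ETS element AGGAAGT in 8.84% (1.85) and the Ets-Irf element GGAANNGAA in 8.63% (1.37). The RUNX element TGTGGT was present in 18.5% of regions and 14.5% of windows (1.28). GACGTGG, an element of the unfolded protein response (UPRE), was present in 0.869% of gene-body regions (ratio 1.55) and TGACGTCA (CRE) in 0.238% (20 regions, ratio 2.09), against 2.79% and 0.976% of TSS regions. The AP-1 element TGANTCA (7.20%) and the NF-kB element GGGANTTTC (0.941%) had ratios of 1.21 and 1.43. All were searched on both strands, and TGANTCA and TGACGTCA read the same on either strand apart from the N.

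Narrow regions contained E-boxes most often. The share with CAGCTG was 46.7% (44.6 to 48.9) in the narrowest of 4 equal width classes, with a median width of 560 bp, then 35.2% and 28.6%, and 21.3% (19.6 to 23.1) in the widest class. The share with any E-box dropped from 94.9% to 78.1% over the same classes. The central window covers less of a wide region, and the middle of the merged region need not be the point of contact. With the window set on the middle of the bases shared by both experiments, 37.1% of all gene-body regions had CAGCTG. There were 1181 regions (14.1%) with no E-box in the central 200 bp and 478 (5.69%) with 2 or more CAGCTG.

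**Figure D3:**
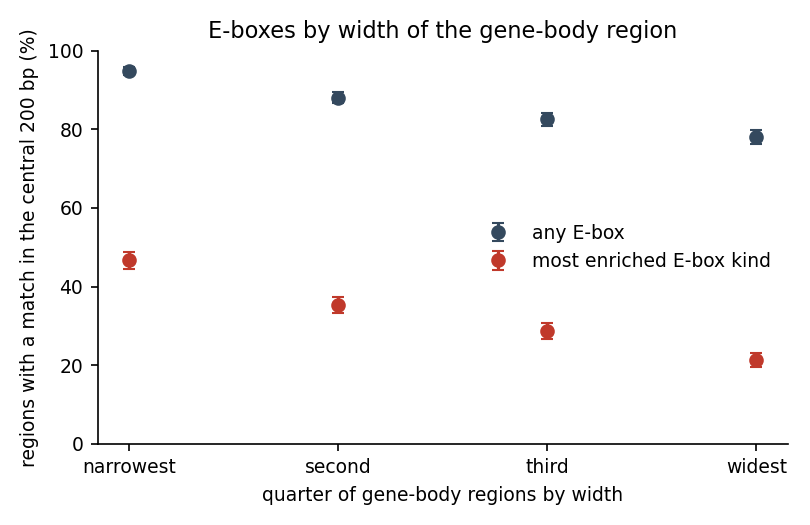
Share of gene-body regions with an E-box in the central 200 bp (y axis, %) by width class of the region (x axis, 4 classes of about equal number), for any E-box and for CAGCTG, with 95% exact binomial intervals. The CAGCTG share drops from 46.7% in the narrowest to 21.3% in the widest class.

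CAGCTG content varied with the part of the gene and little with the distance from the TSS. It was present in 134 of 273 regions (49.1%, 43.0 to 55.2) centred on a coding exon and in 32.3% (31.3 to 33.4) of those in introns, whose median GC contents were 55.5% and 46.5%. CATATG went the other way, with 8.79% in coding exons and 17.2% in introns. Windows of coding exons alone were not searched as a background, and the part of base composition in these shares was not tested. Between regions less than 2.5 kb and those at least 100 kb from the nearest TSS, CAGCTG shares in the 5 distance classes stayed between 31.9% and 34.2%. Regions in hosts with at least 100 TPM in control PBs had CAGCTG in 27.3% (24.7 to 29.9), and those in hosts below 1 TPM in 35.7% (33.0 to 38.4). Their median widths were 998 and 816 bp, and the part of width in this difference was not tested. CAGCTG was present in 31.7% (29.7 to 33.8) of the gene-body peaks found in experiment 1 alone and in 35.0% (34.0 to 36.0) of its shared peaks. In experiment 2, these shares were 34.4% (32.4 to 36.3) and 33.7% (32.7 to 34.7). The unshared peaks were narrower, with medians of 456 and 484 bp against 754 and 807 bp, and the part of this was not tested.

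The 8398 regions overlapped 4195 of 22380 annotated protein-coding genes (18.7%). Of these host genes, 2508 had a single region, 792 had 2, 355 had 3, and 71 had 10 or more. Host genes were long, with a median of 53957 bp against 11124 bp for the other genes. A TSS region was also present in 63.5% of host genes and in 30.3% of the others. Expression names were found for 4133 host genes.

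Gene-body regions were denser in genes that were expressed. Of genes with less than 1 TPM in control PCs, 8.47% (7.91 to 9.07) had a gene-body region, compared with 24.3% (22.7 to 25.9) at 1 to 10 TPM, 32.2% (31.1 to 33.4) at 10 to 100 TPM and 32.2% (30.1 to 34.4) at 100 TPM or more. Per Mb of gene body, the same classes had 2.17, 9.68, 17.5 and 30.5 regions. In control PBs, the corresponding densities were 2.79, 8.62, 16.9 and 29.3 per Mb. The share of genes thus levelled off above 10 TPM while the density continued to increase. Genes of the top class in PCs had a median length of 15831 bp, and those of the class below 24174.5 bp.

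**Figure D4:**
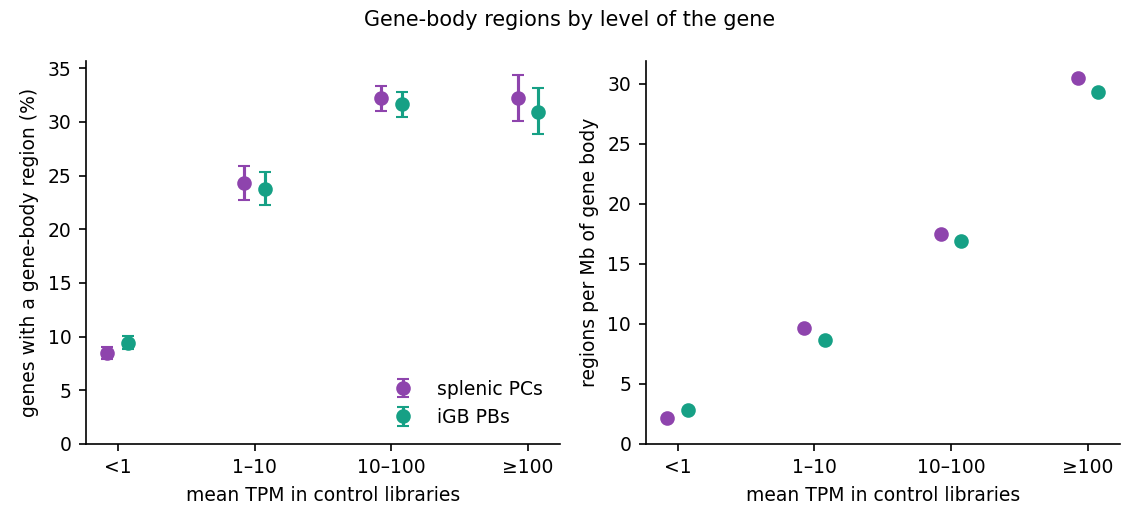
Share of protein-coding genes with a gene-body region (left, %, with 95% exact binomial intervals) and gene-body regions per Mb of gene body (right), by mean TPM of the gene in control PCs or control PBs (x axes). The share levels off near 32% above 10 TPM in PCs, and the density reaches 30.5 per Mb.

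Genes with the most regions were large. Msi2, an RNA-binding protein, held 23 regions. The chromatin remodeller subunit Arid1b and the transcription factor Foxp1 held 22 each, and the B cell transcription factor Ebf1 held 21. Eif4e3, a cap-binding protein, and Inpp4b, a lipid phosphatase, held 18 each. Acoxl, Akap13, Arfip1, Hivep3 and Prkce had 16, and Elmo1 and Gm16039 had 15, as did Mef2c, which is described below with the regulators of PCs. The highest counts fell on unusual gene models. The read-through model Gm20388 spans 4434882 bp on chromosome 8 with 100 regions and has no counterpart among the expression names. Fgfr2, annotated over 3009069 bp on chromosome 7 with 37 regions, was listed at 0 TPM in every PC library and was at 0.857 to 1.32 TPM in PBs. Arfip1 was annotated over 1391424 bp, and the 409314 bp model of Eif4e3 overlaps that of Foxp1. The counts of these genes depend on such models.

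Of these 15 genes, 13 could be tested in PCs and 4 changed by the adjusted p, 3 lower and 1 higher and none by 3-fold, against backgrounds of 16.2% lower and 13.3% higher over all genes tested. Elmo1, an activator of Rac signalling, was at 38.3 and 34.4 TPM in the control and 17.99 and 18.9 TPM in the Mist1-deficient libraries (log2 fold change -0.96 ± 0.10, adjusted p = 0.0026). Msi2 was higher, with 91.1 and 100.45 TPM against 130 and 138 TPM (0.50 ± 0.06, adjusted p = 0.0044). Arid1b (-0.43 ± 0.09, adjusted p = 0.022) and Akap13 (-0.30 ± 0.06, adjusted p = 0.017) were slightly lower, but neither passed when either Mist1-deficient library was left out (adjusted p between 0.077 and 0.15), and Arid1b was at 0.052 without control library 1. The control and Mist1-deficient values of these 4 genes did not overlap, as was the case for 36.0% of all genes tested in the lower and 32.7% in the higher direction. Ebf1 (19.5 and 17.0 TPM on average) and Foxp1 (log2 fold change -0.04, adjusted p = 0.64) did not pass the test.

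Few host genes changed strongly in Mist1-deficient PCs. Calls required a fold above 3, an adjusted p below 0.05 and, in the group with the higher level, a mean above 5 TPM. Of 3369 host genes tested, 28 were called lower (0.831%, 0.553 to 1.20) and 1 was called higher (0.0297%). The background over all 12028 genes tested was 87 lower (0.723%) and 15 higher (0.125%). Both counts of lower genes include Bhlha15, whose decrease was fixed by the genotype. The share of host genes that were lower was therefore close to the background. By adjusted p alone, 669 host genes (19.9%) were lower and 394 (11.7%) were higher, against backgrounds of 16.2% and 13.3%. The median log2 fold change was -0.022 over host genes and 0.014 over all genes. For hosts of 4 or more regions, 125 of 508 (24.6%) were lower by adjusted p, and the median was -0.078. In these bulk samples, fewer cells of a type and less RNA per cell cannot be told apart.

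Among host genes, those that also had a TSS region were lower more often by the adjusted p. By this measure, 585 of 2528 genes (23.1%, 21.5 to 24.8) with both a gene-body and a TSS region were lower, as were 975 of 4860 (20.1%, 18.9 to 21.2) with a TSS region alone. Of genes with a gene-body region and no TSS region, 84 of 841 (9.99%, 8.05 to 12.2) were lower and 135 (16.1%) were higher. Of genes with neither, 7.04% (6.14 to 8.04) were lower and 17.4% were higher. By the 3-fold rule, this order was not seen, as 0.791% (0.484 to 1.22) of genes with both regions, 0.951% (0.412 to 1.87) of hosts without a TSS region, 0.905% of genes with a TSS region alone and 0.275% of genes with neither were lower. The classes differ in gene length and level, and the part of these was not tested.

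The 12 host genes with the largest decreases in Mist1-deficient PCs have varied functions. After Bhlha15, Arpp21, a cAMP-regulated phosphoprotein, was at 6.52 and 4.93 TPM in the control and 0.558 and 0.493 TPM in the Mist1-deficient libraries (log2 fold change -3.19 ± 0.28, adjusted p = 0.0020). Serpini1, a serine protease inhibitor, was at 45.7 and 35.5 TPM in the control and 3.79 and 5.31 TPM in the Mist1-deficient PCs (-3.12 ± 0.21, adjusted p = 0.0013). Both genes have 1 region, in intron 1. Mamdc2, with 4 regions in introns 10 and 11 and no TSS region, was at 7.33 and 9.01 against 0.937 and 1.06 TPM (-2.89 ± 0.20, adjusted p = 0.0014). Cib2, a calcium-binding protein with 3 regions, was at 73.4 and 47.4 against 7.50 and 8.60 TPM (-2.84 ± 0.22, adjusted p = 0.0017). The controls lay above the Mist1-deficient libraries for each of them, which follows from their choice as the largest decreases.

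Creg2, a secreted glycoprotein with 1 region, and Nacc2, a transcriptional repressor with a region at the end of the gene, decreased 6.19-fold and 5.43-fold. Cubn, an endocytic receptor with 7 regions, was at 7.93 and 5.91 TPM in the control and 1.33 and 1.10 TPM in the Mist1-deficient PCs (log2 fold change -2.39 ± 0.24, adjusted p = 0.0026). Its regions lay in introns 23 to 66 and carried CAGCTG in 2 of 7 central windows. Mansc1 and the myosin Myo1h decreased 4.97-fold and 4.61-fold. Rapgef3, an exchange factor activated by cAMP, was at 162 and 134 against 30.4 and 36.0 TPM (-2.13 ± 0.14, adjusted p = 0.0013). Csf2rb, the shared receptor chain for IL-3, IL-5 and GM-CSF, was at 189 and 150 against 37.9 and 39.9 TPM (-2.09 ± 0.13, adjusted p = 0.0013). The expression entries of Arpp21, Myo1h and Csf2rb carried the suffix IMP_OVL in their names, which was ignored when names were matched. The summed TPM of 9 neutrophil markers was 1001 and 470 in control and 860 and 570 in Mist1-deficient libraries, and its part in the level of Csf2rb was not tested.

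Among the remaining called hosts, Sla, a Src-like adaptor, had 6 regions (mean 250 against 67.7 TPM, log2 fold change -1.87 ± 0.09, adjusted p = 0.00099), and Ctla4, an inhibitory receptor, and the fatty acid desaturase Fads2 had 5 each. Ctla4 had a mean of 141 TPM in control and 40.8 TPM in Mist1-deficient PCs (-1.77 ± 0.13, adjusted p = 0.0015). The summed TPM of 8 T cell markers was 87.7 and 89.4 in control and 100.02 and 130 in Mist1-deficient PCs, and its part in the level of Ctla4 was not tested. The 6 mature B cell markers summed to 979 and 1318 TPM in control and 763 and 842 TPM in Mist1-deficient PCs, and their part in the lower host genes was not tested.

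Dclk2, a doublecortin-like kinase with 5 regions and no TSS region, was the only host gene called higher in PCs. It was at 12.8 and 20.2 TPM in the control and 43.9 and 52.8 TPM in the Mist1-deficient libraries (log2 fold change 1.59 ± 0.20, adjusted p = 0.0045). None of its 5 central windows held CAGCTG, and 4 of the 5 held some E-box. At a fold just above 3, the call depended on the settings. It was absent with TPM as deposited, with a pseudocount of 1, without control library 1 and without Mist1-deficient library 2, each of which left 0 host genes called higher.

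**Figure D5:**
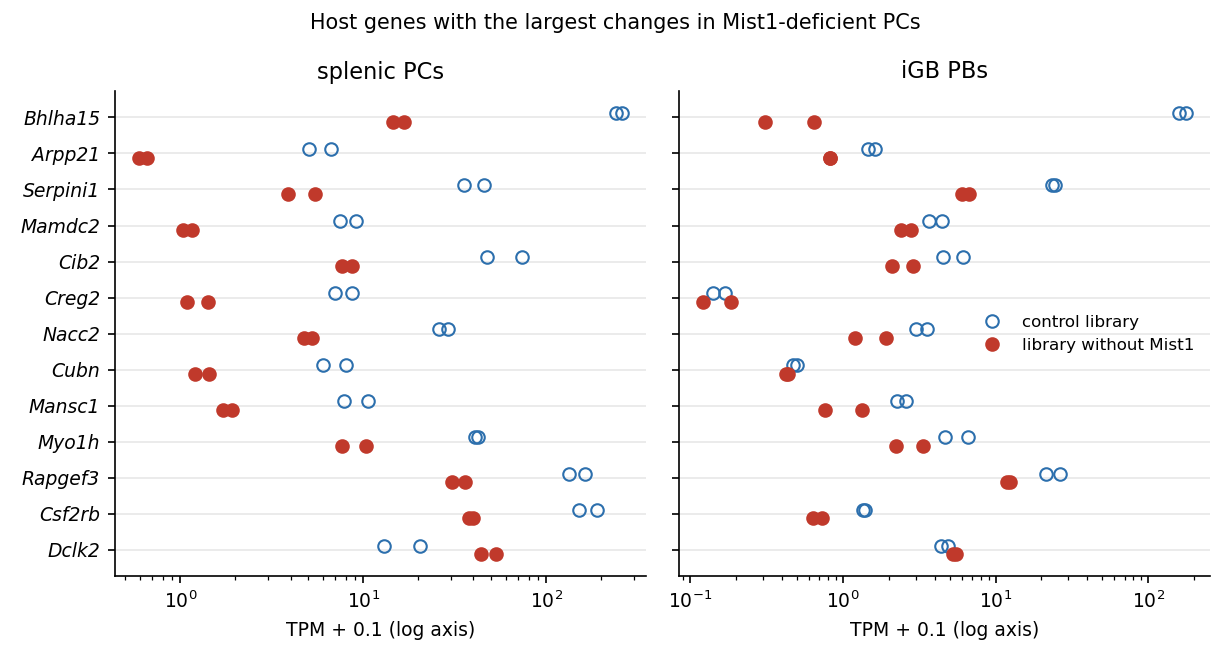
TPM + 0.1 (log x axis) in each of 2 control libraries and 2 libraries without Mist1 for the 12 host genes that decreased most and the 1 that increased in Mist1-deficient PCs, in splenic PCs (left) and iGB PBs (right). In PCs the groups are apart for all 13 genes, which were chosen for this, and in PBs the gap is smaller for all but Bhlha15, with Creg2 and Cubn below 1 TPM in every library.

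In Bhlha15(CreER/CreER) PBs, 2 of 3309 host genes tested, Bhlha15 and Serpini1, were called lower (0.0604%), and none was called higher. The decrease of Bhlha15 was fixed by the genotype, so Serpini1 was the only other host called. The background over 12125 genes was 4 lower (0.033%) and 2 higher (0.0165%). By limma at an unadjusted p below 0.05, 259 of these host genes were lower and 130 were higher. Over all 12125 genes, 1267 passed this p in either direction. The adjusted p was passed by 14 host genes lower and 1 higher, against 33 (0.272%) and 6 (0.0495%) of all genes. The host counts by the adjusted p were 30 and 3 with TPM as deposited and 24 and 4 with quantile normalization. Serpini1 was at 24.2 and 23.4 TPM in control, 4.50 and 3.65 TPM in Xbp1-deficient and 5.93 and 6.56 TPM in Bhlha15(CreER/CreER) PBs (log2 fold change -1.87 ± 0.16, adjusted p = 0.0030). All 4 libraries with little or no Bhlha15 were below both controls. This order of Bhlha15(CreER/CreER) and control libraries was seen for 22.5% of all genes tested. Without control library 1, the adjusted p of Serpini1 was 0.068, and of the 15 host genes that passed the adjusted p in PBs only Bhlha15 still did. The comparison of PBs shares no library with that of PCs.

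The other host genes that were lower in Bhlha15(CreER/CreER) PBs by the adjusted p included Sla, Mib1, Cep250, Rpgrip1, P2rx3 and Rapgef3, with 2 to 6 regions each. Rapgef3 was at 21.3 and 26.3 TPM in control and 12.3 and 11.7 TPM in Bhlha15(CreER/CreER) PBs (log2 fold change -0.93 ± 0.11, adjusted p = 0.011), and without control library 1 or 2 its adjusted p was 0.068 or 0.11. Mib1, a ubiquitin ligase of Notch signalling, had a mean of 40.8 against 17.9 TPM (-1.16 ± 0.10, adjusted p = 0.0030; 0.068 without control library 1). Atp1b1, a subunit of the sodium pump, was the single host gene higher by the adjusted p (mean 1.29 against 4.52 TPM). Of the 28 host genes called lower in PCs, 25 were tested in PBs, 23 were lower there and 5 passed the adjusted p. Bhlha15 itself is in each of these counts. The median log2 fold change was -0.71 in PBs for those tested and -2.02 in PCs for the 28. Over all genes tested in PBs, the median was 0.0044, and 0.272% were lower by the adjusted p. Genes called lower in PCs without a gene-body region were not compared. Fibroblast markers of the feeder cells summed to 731 to 1414 TPM in the PB libraries and to no more than 1.56 TPM in PCs.

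Most of 20 genes in a list of regulators of plasma cell identity had gene-body regions. At least 1 region was present in 17, with 105 regions in all, compared with 30.2% of the protein-coding genes tested in PCs. The listed genes ranged from 4156 bp (Bhlha15) to 766722 bp (Zbtb20). Their mean level in control PCs ranged from 8.45 TPM (Runx1) to 4778 TPM (Xbp1). The part of gene length and level in this share, and in those of the lists below, was not tested. Mef2c had 15 regions, Ets1 14, Tcf4 and Zbtb20 10 each and Runx1 8. Prdm1, which encodes Blimp1, had 5 and Irf4 had 4. Xbp1, Tcf3 and Zbtb32 had none. In Mist1-deficient PCs, 3 of the 17 hosts were lower (Bhlha15, Pou2f2 and Zbtb20) and 3 were higher (Irf4, Pou2af1 and Ern1) by the adjusted p, near the backgrounds of 16.2% and 13.3%, and the median of the list was -0.06 against 0.014 over all genes. Of these 6, only Bhlha15 and Pou2f2 passed with any library left out.

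Irf4 and Prdm1 encode transcription factors that drive plasma cell differentiation. Irf4 (chr13:30841095-30858796) carried a region of 2275 bp in intron 6, 1 of 1081 bp over a coding exon, 1 of 2014 bp in intron 7 and 1 over the end of the transcript. Its level was 688 and 739 TPM in control and 947 and 886 TPM in Mist1-deficient PCs (log2 fold change 0.38 ± 0.06, adjusted p = 0.0095). The difference lost significance without either of the Mist1-deficient libraries (adjusted p = 0.11 and 0.077). In PBs, Irf4 was at 683 and 651 TPM in control and 651 and 671 TPM in Bhlha15(CreER/CreER) libraries (0.03 ± 0.11, adjusted p = 0.95). Prdm1 (chr10:44156983-44248307) had 2 regions in intron 3, 1 in intron 5, 1 over a coding exon and 1 at the end of the gene. It was at 175 and 198 TPM in control and 237 and 203 TPM in Mist1-deficient PCs (0.25 ± 0.09, adjusted p = 0.079), and did not pass the test. The 4 Mist1-deficient and control values of Prdm1 did not overlap, but the nearest ones, 198 and 203 TPM, were close.

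B cell transcription factors were also frequent hosts, with regions in 12 of 20 genes and 75 regions in all, against 30.2% of genes tested in PCs. Ebf1 had 21, Bach2 12, Nfatc1 9, Etv6 7 and Pax5 5. Of the 12, only Etv6 passed the adjusted p in Mist1-deficient PCs, with a slight increase (log2 fold change 0.39 ± 0.07, adjusted p = 0.013), and not without either Mist1-deficient library (0.10 and 0.084). Of the 7 E and Id proteins, which pair with or block basic helix-loop-helix factors, Tcf4 and Tcf12 had 10 regions each, and Tcf12 was lower (-0.39 ± 0.08, adjusted p = 0.016), though not without either Mist1-deficient library (0.065 and 0.12). The other 5 had none.

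Genes for surface proteins had regions in 11 of 20 cases for PC surface and homing genes and in 12 of 20 for B cell receptor and surface genes. The share was 30.2% of the protein-coding genes tested in PCs. Of the 11 PC hosts, Tnfrsf17 (BCMA), Ccr9, Itgb7 and Il6ra were lower, and Sdc1 (CD138), Slamf7 and Cd28 were higher by the adjusted p, which 16.2% and 13.3% of all genes tested passed in these directions. With each library left out in turn, Itgb7, Slamf7 and Cd28 passed throughout, whereas Tnfrsf17, Il6ra and Sdc1 did not pass without either Mist1-deficient library, and Ccr9 not without Mist1-deficient library 2 (adjusted p = 0.064). Cd28, a co-stimulatory receptor with 4 regions, had a mean of 120.5 TPM in control and 205 TPM in Mist1-deficient PCs (0.79 ± 0.07, adjusted p = 0.0019). Itgb7, an integrin chain used in homing to the gut, had means of 179 and 89.9 TPM (-0.97 ± 0.09, adjusted p = 0.0021). Among B cell genes, the inhibitory Fc receptor Fcgr2b with 1 region had means of 256 and 104 TPM (-1.27 ± 0.08, adjusted p = 0.0013). Btk and Syk were slightly lower and Plcg2, with 8 regions, slightly higher, and these 3 did not pass without either Mist1-deficient library, whereas Fcgr2b did. None of these genes passed the 3-fold rule in PCs, and none of those tested in Bhlha15(CreER/CreER) PBs, which leaves out Ccr9, passed the adjusted p there.

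Genes of the unfolded protein response and the endoplasmic reticulum (ER) had gene-body regions in 14 of 32 cases (43.75%), with 39 regions in all. The share was 30.2% of the protein-coding genes tested in PCs. Atf6 and Ern1, which encode sensors of ER stress, had 7 and 6. In Mist1-deficient PCs, Syvn1 was lower and Ern1 and Ssr1 were higher by the adjusted p, and the other 11 did not pass the test. The backgrounds over all genes tested were 16.2% lower and 13.3% higher. Syvn1, Ern1 and Ssr1 did not pass without either Mist1-deficient library. The chaperone genes Hspa5, Hsp90b1, Calr and Canx had no gene-body region. Of 5 genes known as Mist1 targets in exocrine cells, Atp2c2 and Copz2 had 1 region each, whereas Rab26, Rab3d and Gjb1 had none. Copz2, a coat protein of transport vesicles, had means of 54.7 and 35.8 TPM (-0.59 ± 0.08, adjusted p = 0.0058). Autophagy and mTOR genes were hosts in 7 of 21 cases (33.3%), near the 30.2% of genes tested in PCs. Of the 7, Wipi1 (0.67 ± 0.08, adjusted p = 0.0042) and Atg5 (0.33 ± 0.06, adjusted p = 0.015) were higher in Mist1-deficient PCs. None was lower by the adjusted p. Copz2 and Wipi1 passed with any library left out, and Atg5 did not pass without either Mist1-deficient library (adjusted p = 0.12 and 0.089).

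Genes that the study had named on the basis of these same samples, which are thus no independent evidence, were also examined. Several of them had no gene-body region, namely Zfp667, Cited4, Hdac1, Rps27l, Asah2 and Mettl21b. All except Asah2 had a TSS region. Of the remainder, Creb3l1, an ER-resident transcription factor, had 1 region in intron 10 and was at 8.19 and 6.36 TPM in control and 1.62 and 2.18 TPM in Mist1-deficient PCs (log2 fold change -1.87 ± 0.24, adjusted p = 0.0045). The study's text names Hdac1 and not Hdac11, which was examined beside it. Hdac1 was at 21.4 and 22.8 TPM in control and 26.5 and 23.7 TPM in Mist1-deficient PCs. It did not pass the test (log2 fold change 0.20 ± 0.08, limma, adjusted p = 0.13). Hdac11, a histone deacetylase with 1 region over a coding exon, was at 9.29 and 7.36 against 2.399 and 2.99 TPM (-1.57 ± 0.20, adjusted p = 0.0048), just short of the 3-fold rule. The central windows of Creb3l1 and Hdac11 did not contain CAGCTG, and that of Hdac11 contained no E-box.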

How the data were processed

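Positions and TPM were taken from the deposited files. Per the labels and methods, the authors aligned Bio-ChIP-seq reads to mm9 with Bowtie (1.0.0) and used MACS for peak calling, with mature B cell input chromatin as the control and a stringent p-value cutoff. The deposited peak lists hold positions only. For RNA-seq, the authors aligned with STAR (2.4.2), counted exonic reads with featureCounts (1.5) without immunoglobulin and T cell receptor genes, and deposited TPM, which sum to 1000000 per library, so that sequencing depth is unknown here. Other tools named in the submitters' notes were SAMtools (1.9), Picard (2.18.27) and cutadapt.

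Peaks were merged and annotated with bedtools (2.31.1) against GENCODE M1, whose gene models are those of mm9 (NCBIM37). E-boxes and other motifs were counted in the central 200 bp on both strands. TPM of the 4 PC libraries and, separately, of the 6 PB libraries were scaled by median of ratios. Genes that reached 1 TPM in 2 or more libraries were tested with limma (3.58.1) on log2(TPM + 0.1) with a mean trend and Benjamini-Hochberg adjustment over all genes tested. Fold changes are on that scale and understate changes of low genes. limma replaces the count test of the methods because TPM are not counts. The scripts were tested on simulated data. Intervals are exact at 95 percent.

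The regions, gene lists and tests were chosen with earlier results of these data known. Named genes were the genes the study links to Mist1, the 15 hosts with the most regions, the 12 hosts with the largest decrease and up to 6 with the largest increase among those called, hosts called in both PCs and PBs, and the members of 8 gene lists. Hdac11 was included beside Hdac1, which is the gene that the study's text names. Other called hosts, and those that passed the adjusted p in PBs, were named after their values were seen. Alternatives covered the overlap of peaks, the TSS zone, the width limit, the window, the scaling, the pseudocount, the filter, the trend and each library left out. The surface markers by which the iGB PBs were sorted are not reported here.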

Additional observations from a re-analysis of the deposited data

Results flagged for a closer look

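Among the 127 named host genes, those tested in both PCs and PBs were compared for direction. For 8 of them, the libraries without Mist1 lay on opposite sides of their controls in PCs and PBs after scaling. Over all genes tested, TPM before scaling did not overlap between groups for 36.0% lower and 32.7% higher in PCs. The same shares in PBs were 22.5% and 17.0%, and opposite order was not counted over all genes. Ctla4 was lower in both Mist1-deficient PC libraries (log2 fold change -1.77) and higher in both Bhlha15(CreER/CreER) PB libraries (0.41, limma, adjusted p = 0.55), and so was the integrin chain Itgb7 (-0.97 in PCs and 0.21 in PBs, adjusted p = 0.64). The same order was seen for Cd38 (-0.21 and 0.47) and Arfip1 (-0.19 and 0.054), and the opposite order for Creb3l2 (0.20 and -0.11), Edem3 (0.17 and -0.18), Sel1l (0.11 and -0.25) and Ulk1 (0.19 and -0.095), none of which passed the adjusted p in PCs or PBs. The difference between PCs and PBs was not tested for these genes.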

How the results depend on the processing

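The number of gene-body regions ranged from 7384 with a TSS zone of 2.5 kb to 11134 with all peaks of experiment 2 alone. The share of regions without an exon base, 80.8%, was 82.0% with the 2.5 kb zone, 73.3% with 1 TSS per gene, 78.2% with TSSs of coding transcripts only, an alternative chosen after seeing the data, and 82.6% to 82.8% in a single experiment. The CAGCTG share, 33.0%, was 34.1% with 50% reciprocal overlap, 19.0% and 49.1% in central windows of 100 and 400 bp, 37.1% around the middle of the shared bases and 33.9% to 34.4% in a single experiment. The windows differ in the number of bases searched.

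The 28 host genes lower in PCs became 669 by adjusted p alone, 19 with a pseudocount of 1 and 8 without a TSS region. The 1 host gene higher became 394 by adjusted p alone, 0 with TPM as deposited or a pseudocount of 1, and 0 to 1 with a library left out. The median over host genes in PCs was -0.041 with TPM as deposited, -0.036 without a filter and 0.011 with quantile normalization, and in PBs it was -0.066 with TPM as deposited. In PBs, the 2 host genes lower became 14 by adjusted p alone, 0 without a TSS region and 1 to 2 with a library left out, and the 0 higher became 1 by adjusted p alone. The cause was not tested.

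By adjusted p alone, host genes lower and higher numbered 710 and 329 in PCs with TPM as deposited and 599 and 473 with quantile normalization, and 30 and 3 or 24 and 4 in PBs. Of 2409 alternatives for 127 named host genes, 2263 kept direction and side of the threshold, 116 lost the call, 28 gained it and 2 reversed. The reversals were Cd22 (log2 fold change -0.37 without PC control library 1 and 0.25 without library 2) and Ciita (-0.41 and 0.33), which passed the adjusted p only with 1 control left out. Of 24 hosts from the gene lists that passed in PCs, 16 lost the call under some alternative, 15 without Mist1-deficient library 1, 16 without library 2 and 13 without the trend. Those that passed throughout were Bhlha15, Cd28, Copz2, Fcgr2b, Itgb7, Pou2f2, Slamf7 and Wipi1. Of the 15 that passed in PBs, 14 lost the call without control library 1, 7 without control library 2 and 11 without the trend. Leaving out 1 library left a group with a single library, which was assumed to vary like the others. Sequencing depth is unknown from TPM, and the peak lists give no height. No paired analysis was possible because the labels carry no replicate numbers.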
